A study of Mus musculus with 6 samples.

Results

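The cytosolic ribosomal protein genes were taken as every gene name on the array made of Rpl or Rps and a number, with an optional a, x, y or l and digit after it, together with Rpsa, Rplp0, Rplp1 and Rplp2. This gave 84 of the 34650 gene names on the array. Of these, 76 were common genes, 5 ended in l (Rpl10l, Rpl39l, Rpl3l, Rps27l and Rps4l), and 3 ended in l and a digit (Rpl22l1, Rpl7l1 and Rps12l2). The 84 genes had 192 probes, of which all but 1 rose well above background on 3 arrays or more. Every member was thus tested, with 191 kept probes over all 84 genes together.

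RNA of mouse embryonic stem (ES) cells was measured on 6 one-colour Agilent arrays. The 3 TKO arrays held RNA of cells with Tet1, Tet2 and Tet3 knocked out, the enzymes that oxidise 5-methylcytosine in DNA, and the 3 WT arrays held RNA of the wild-type line BJ FF2, from which the TKO cells were derived. Both were kept on mouse embryonic feeders in 2i medium, then moved without feeders onto matrigel, and were grown at the same time, with 1 dish per array. The replicates were therefore dishes of 1 line and of the cells derived from it, so that p-values measure only the spread between dishes, and the knockout and any other difference between the TKO cells and their parent line cannot be told apart.

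The brightest Tet1 probe averaged 2.47 on TKO arrays and 3.84 on WT arrays, and the brightest Tet2 probe averaged 0.94 on TKO arrays and 3.88 on WT arrays. The brightest Tet3 probe averaged -1.99 on TKO arrays and -1.75 on WT arrays, which missed the threshold (adjusted p = 0.0842). Which exons were altered is not given in the sources used here, so probes that lie elsewhere in these genes would check nothing. Every level is a log2 signal after subtraction of the array's own 75th percentile, and all differences are TKO minus WT on the log2 scale. Of 10 marker genes of pluripotent cells, all were measured, 3 higher and 5 lower in TKO cells. Of all genes tested, 30% were higher and 29.7% lower. The sum of the marker signals was 746 to 809 times the 75th percentile on TKO arrays and 800.4 to 874 times on WT arrays. In bulk RNA, fewer cells of a type and less RNA per cell cannot be told apart.

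Each cytosolic ribosome has a small subunit, which reads the messenger RNA, and a large subunit, which joins amino acids and from which a flexible stalk recruits translation factors. Most ribosomal proteins are made in equal numbers from messenger RNAs that start with a run of pyrimidines (the 5′ terminal oligopyrimidine, or TOP, motif), whose translation is tuned by the kinase mTOR. A few have paralogs of restricted expression: in mouse testis, the autosomal Rpl10l and Rpl39l are known to stand in for the X-linked Rpl10 and Rpl39, and Rpl3l is known from striated muscle.

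The paralogs Rpl10l and Rpl39l fell by far more than any common ribosomal protein gene did on its brightest probe. Rpl10l was 10.5-fold lower and Rpl39l 8.52-fold lower in TKO cells, whereas their X-linked counterparts Rpl10 and Rpl39 differed by 1.02-fold and 1.04-fold, which did not pass the test. On their brightest probes, all 76 common genes lay within 1.26-fold of their WT level.

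For Rpl10l, a retrocopy of Rpl10, the brightest probe read 3.05, 3.01 and 3.00 on TKO arrays, against 6.49, 6.39 and 6.36 on WT arrays. The difference was -3.39 ± 0.046 (SE, adjusted p = 1.22e-06), and every TKO dish lay far below every WT dish. A second Rpl10l probe read 0.23, 0.24 and 0.29 on TKO arrays, against 3.68, 3.67 and 3.67 on WT arrays. The probes thus gave nearly the same difference, -3.39 and -3.42 (SE 0.038 for the second), although their signals were of different height. Both were still well above background on all 3 TKO arrays. The X-linked Rpl10, whose protein joins the large subunit late in its assembly, read 9.05, 9.14 and 9.16 on TKO arrays, against 9.18, 9.14 and 9.11 on WT arrays. These values overlapped, with a difference of -0.03 ± 0.045 (SE, adjusted p = 0.621), and a second Rpl10 probe also gave -0.03.

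Rpl39l encodes a copy of Rpl39, a small protein in the wall of the exit tunnel for the new chain. Its single probe read 1.84, 1.76 and 1.89 on TKO arrays, against 4.96, 4.90 and 4.90 on WT arrays. The groups lay far apart, with a difference of -3.09 ± 0.048 (SE, adjusted p = 1.38e-06). The X-linked Rpl39 read 7.70, 7.75 and 7.68 on TKO arrays, against 7.80, 7.78 and 7.72 on WT arrays. These values overlapped (-0.06 ± 0.041 SE, adjusted p = 0.264). Another Rpl39 probe gave -0.08, and a dim one was lower at -0.30 ± 0.051 (SE, adjusted p = 0.0037). The falls of Rpl10l (-3.60 to -3.34) and Rpl39l (-3.29 to -3.04) passed the test in each of 19 alternative analyses.

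The median difference of the 41 other genes tested within 5 Mb of Rpl10l on chromosome 12 was -0.17, and that of the 71 within 5 Mb of Rpl39l on chromosome 16 was -0.02. Of 15 testis germ cell marker genes, 8 were tested, of which 1 was higher and 2 were lower in TKO cells. Of all genes, 30% were higher and 29.7% lower. The summed signal of the markers was 12.8 to 13.6 times the 75th percentile on TKO arrays and 14.1 to 14.4 times on WT arrays. It rests largely on Odf2, the brightest, which averaged 3.19 on TKO arrays and 3.25 on WT arrays on the log2 scale. Prm1 (-2.17 ± 0.138 SE) and Ldhc (-0.43 ± 0.056 SE) fell, and Tnp2 rose (0.72 ± 0.141 SE). Prm1 was dim, well above background on 0 TKO arrays and 3 WT arrays. Acrv1, Adam2, Pgk2, Spaca1 and Spo11 were well above background on none of the 6 arrays. Their part in the falls of Rpl10l and Rpl39l was not tested.

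The stretch of Rpl10l RNA that the second probe binds is shown beside that of the brightest Rpl10 probe, as examples of what the arrays read. The brightest Rpl10l probe, which stands for the gene, is not shown. Both are 60 bases long, on build mm9 per the file headers, with CG dinucleotides in capitals, of which the Rpl10l stretch has 4 and the Rpl10 stretch 0. The stretches did not align with each other in the search given below, so these counts do not compare like parts of the genes.
Rpl10l (chr12:67384868-67384927, minus strand): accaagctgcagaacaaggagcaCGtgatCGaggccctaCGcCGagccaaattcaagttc
Rpl10 (chrX:71518307-71518366, plus strand): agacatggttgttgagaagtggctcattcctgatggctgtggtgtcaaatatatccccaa
Among all other probes on the array, none under another name aligned to the second Rpl10l probe or to the Rpl39l probe (blastn, E-value threshold 0.001), and the closest to the brightest Rpl10l probe shared 25 of 60 bases. The probes were not aligned with whole transcripts, so matches to other RNA, such as that of Rpl10 or Rpl39, were not tested.

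The start regions of these genes are shown because Tet enzymes act on methylated CG dinucleotides, which are in capitals. They are from RefSeq on GRCm38.p6, each from 250 bases before the annotated start to 30 bases after it. No methylation was measured here.
Rpl10l (chr12:66284372-66284651, minus strand): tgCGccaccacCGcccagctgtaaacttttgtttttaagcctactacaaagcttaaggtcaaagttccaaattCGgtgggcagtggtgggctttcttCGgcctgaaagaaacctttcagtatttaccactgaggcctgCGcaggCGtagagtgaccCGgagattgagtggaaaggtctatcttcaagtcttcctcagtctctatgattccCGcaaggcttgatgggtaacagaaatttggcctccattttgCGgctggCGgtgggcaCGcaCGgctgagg
Rpl39l (chr16:10169978-10170257, plus strand): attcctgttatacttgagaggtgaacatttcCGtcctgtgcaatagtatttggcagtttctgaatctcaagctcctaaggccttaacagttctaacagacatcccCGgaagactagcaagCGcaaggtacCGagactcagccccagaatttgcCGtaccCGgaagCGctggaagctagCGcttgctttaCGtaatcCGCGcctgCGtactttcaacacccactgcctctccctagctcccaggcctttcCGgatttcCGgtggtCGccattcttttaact
Rpl10 (chrX:74270566-74270845, plus strand): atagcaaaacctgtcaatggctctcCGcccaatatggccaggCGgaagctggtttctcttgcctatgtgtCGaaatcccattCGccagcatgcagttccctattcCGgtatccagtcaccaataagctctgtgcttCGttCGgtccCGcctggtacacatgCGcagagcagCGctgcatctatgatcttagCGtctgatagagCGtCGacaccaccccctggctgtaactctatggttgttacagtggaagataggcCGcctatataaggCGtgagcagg
Rpl39 (chrX:37085193-37085472, minus strand): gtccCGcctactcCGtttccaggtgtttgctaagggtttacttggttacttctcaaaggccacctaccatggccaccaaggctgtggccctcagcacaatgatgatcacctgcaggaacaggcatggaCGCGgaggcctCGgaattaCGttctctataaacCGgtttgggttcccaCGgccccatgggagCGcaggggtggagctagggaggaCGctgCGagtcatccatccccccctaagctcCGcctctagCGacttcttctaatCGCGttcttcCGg
In the printed 280 bases, Rpl10l had 12 CG dinucleotides and Rpl39l 15, against 15 in Rpl10 and 16 in Rpl39. Over the full windows of 300 bases, Rpl10l had 13 and Rpl39l 17. The 66 windows of 56 common genes had a median of 21, with a range from 8 to 39, and all 32851 promoter windows had a median of 7. Both windows of the muscle paralog Rpl3l held fewer, 2 and 3.

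The other paralogs differed less. Rps27l, a relative of Rps27 that p53 is known to induce, read 7.19, 7.19 and 7.11 on TKO arrays, against 7.52, 7.49 and 7.33 on WT arrays. All TKO values lay below all WT values (-0.28 ± 0.063 SE, adjusted p = 0.0109). Rpl3l was dim and read -1.76, -1.81 and -1.80 on TKO arrays, against -1.70, -1.49 and -1.55 on WT arrays. Its fall passed the test (-0.21 ± 0.063 SE, adjusted p = 0.0299), but not in 9 of 19 alternatives. Of 14 striated muscle markers, 9 were tested, 7 higher and 2 lower in TKO cells, against 30% higher and 29.7% lower of all genes. The markers had a summed signal of 6.35 to 6.82 times the 75th percentile on TKO arrays and 4.02 to 4.36 times on WT arrays. Myh1 and Myh2 were above background on no array. The part of these markers in the Rpl3l value was not tested. With the array row as a block, or in the first row alone, the calls for Rps27l and Rpl3l were lost and 2 of the 4 called paralogs that end in l remained, Rpl10l and Rpl39l.

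Rps4l, a relative of the X-linked Rps4x, read 7.03, 6.95 and 6.93 on TKO arrays, against 6.87, 6.82 and 6.90 on WT arrays. The groups did not overlap, but the rise of 0.11 ± 0.045 (SE) missed the threshold (adjusted p = 0.0794) and was -0.09 with median centring. Rpl7l1 fell by 0.42 ± 0.049 on the log2 scale (SE, adjusted p = 0.000758), with 1.24, 1.30 and 1.34 on TKO arrays, against 1.78, 1.66 and 1.71 on WT arrays. Rpl22l1, which Rpl22 is known to repress in mouse, read 7.52, 7.51 and 7.44 on TKO arrays, against 7.42, 7.38 and 7.30 on WT arrays. These groups did not overlap either, and the value of 0.12 ± 0.049 (SE) missed the threshold (adjusted p = 0.0825, and -0.08 with median centring). Rps12l2 values overlapped (-0.03 ± 0.063 SE). A probe of another name shared 57 of 60 bases with the Rpl22l1 probe, and a probe of Rps12 shared 52 of 60 with the second Rps12l2 probe, and the part of near copies in their signals was not tested.

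**Figure D1:**
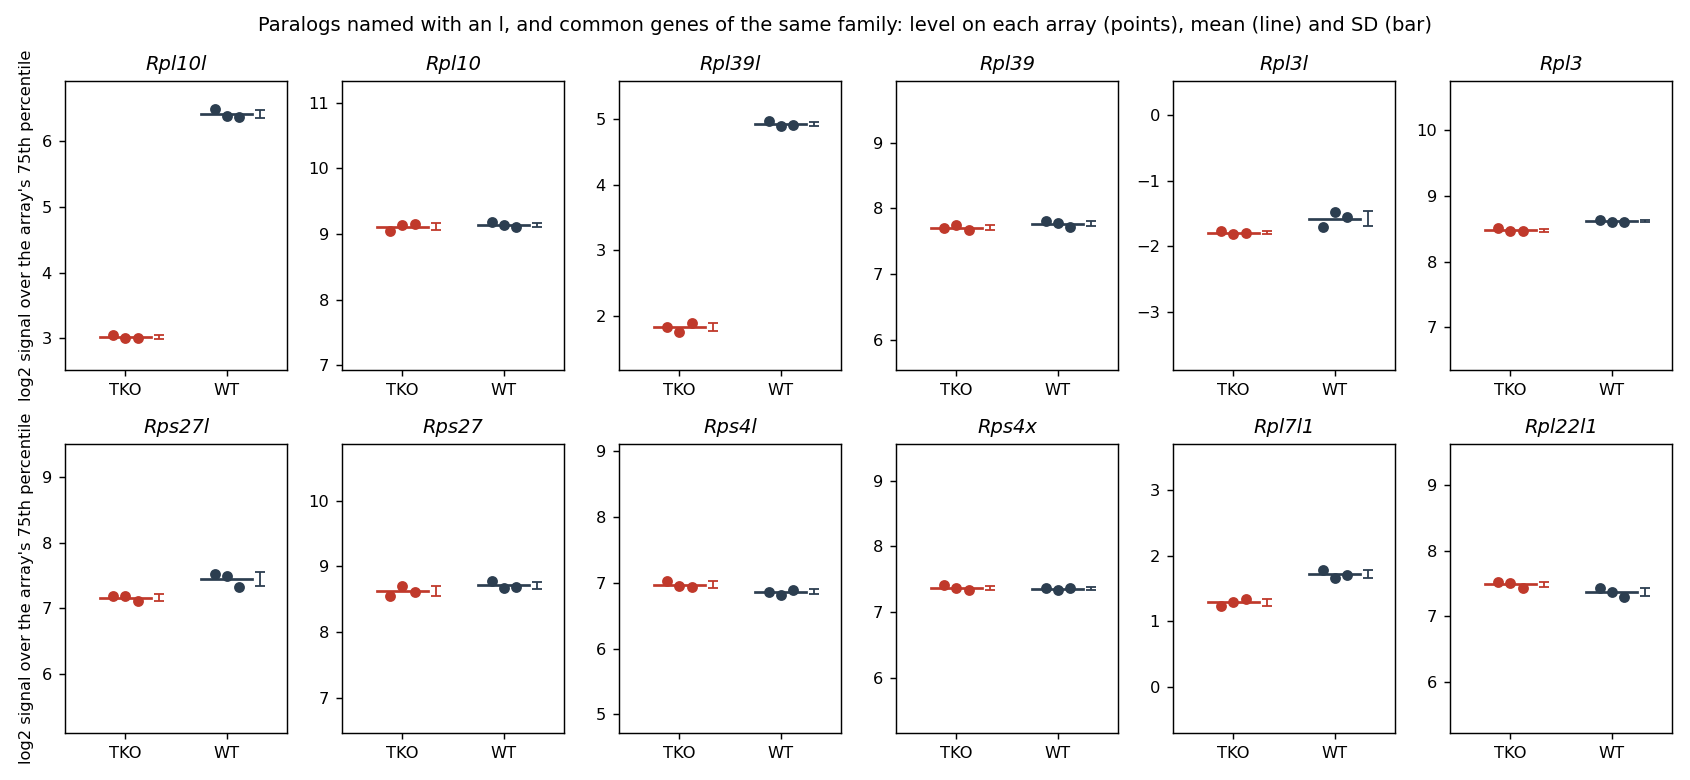
Level on each array (points), mean (line) and SD (bar) of 7 paralogs named with an l and 5 common genes of the same families, TKO left and WT right in each panel, on an axis of log2 signal over the array's 75th percentile that spans the same width in every panel. Rpl10l and Rpl39l lie 3.39 and 3.09 log2 units lower on TKO arrays, whereas Rpl10 and Rpl39 differ by 0.03 and 0.06.

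The common genes were mostly a little lower in TKO cells. The median difference over the 76 genes was -0.06, against -0.008 over all genes tested, and 59 of the 76 lay below 0. The genes with the brightest 10% of signals had nearly the same median, -0.05, with 1350 of 2157 below 0. In the fit across all genes, 18 of the 76 (23.7%) passed the test, 4 higher and 14 lower, where 59.7% of all 21562 genes passed, 30% higher and 29.7% lower. The share that passed was thus below that of all genes, and it was also below the 52.3% of those bright genes. None of the common genes was called at 2-fold, against 13.7% of all genes. The TKO and WT values lay apart for 27 of the 76, against 67.6% of all genes.

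The median signal of the common genes was 8.50, 8.58 and 8.49 on TKO arrays, against 8.68, 8.61 and 8.61 on WT arrays. TKO replicate 2 and WT replicate 1 read highest in their groups. Without both of these, 3 common genes were higher and 3 lower, in place of 4 and 14. The count of lower genes was 9 without TKO replicate 1, 12 without TKO replicate 2, 5 without TKO replicate 3, 6 without WT replicate 1, 8 without WT replicate 2 and 9 without WT replicate 3, and Rps24, Rpl31, Rpl13, Rpl22 and Rpl36a were among them each time. With the array row as a block, however, Rps24 and Rpl36a kept the call, and Rpl31, Rpl13 and Rpl22 lost it. Centred on each array's median instead of its 75th percentile, all differences moved down by a constant, the median gene to -0.209, and then 0 common genes were higher and 59 lower, while over all genes 3827 were higher and 9488 lower. The array median was dim, at 26.8 to 28.8 in linear signal on TKO arrays and 22.7 to 24.5 on WT arrays. The 75th percentile was 383 to 413 on TKO arrays and 367 to 398 on WT arrays. As 51.9% to 58.5% of spots were well above background, the median spot lay near that limit. Relative to the median gene, the common genes were at -0.052 with either centring. They were at -0.0096 with cyclic loess and at 0.0098 with quantile normalization, where 6 and 7 were higher and 7 and 9 lower.

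Among large subunit genes, 4 of 45 rose and 8 fell, with a median of -0.06, where 30% of all genes were higher and 29.7% lower. Rpl31, at the rim of the exit tunnel, read 8.24, 8.28 and 8.19 on TKO arrays, against 8.62, 8.45 and 8.42 on WT arrays. All TKO values were below all WT values (-0.26 ± 0.064 SE, adjusted p = 0.0152). The X-linked Rpl36a read 7.90, 7.82 and 7.76 on TKO arrays, against 8.07, 8.07 and 8.07 on WT arrays, a fall of 0.24 ± 0.045 (SE, adjusted p = 0.00513). Rpl13 read 8.61, 8.64 and 8.54 on TKO arrays, against 8.94, 8.80 and 8.78 on WT arrays (-0.24 ± 0.059 SE, adjusted p = 0.014). The groups did not overlap for either gene. Rpl22, which binds RNA and is also a tumour suppressor in T cell leukaemia, read 8.50, 8.51 and 8.46 on TKO arrays, against 8.70, 8.65 and 8.66 on WT arrays (-0.18 ± 0.036 SE, adjusted p = 0.00689). Rpl34 (-0.16), Rpl18 (-0.14), Rpl3 (-0.14), which helps to form the catalytic centre, and Rpl9 (-0.12, adjusted p = 0.0472) also fell. The call was lost in 13 of 19 alternatives for Rpl3, in 10 for Rpl34 and in 9 for Rpl18. A second probe gave -0.06 for Rpl3 and -0.04 for Rpl34. The Rpl7 difference of -0.21 ± 0.076 (SE) missed the threshold (adjusted p = 0.0623).

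Among small subunit genes, 0 of 31 rose and 6 fell (7 differed in an unadjusted limma p under 0.05), with a median of -0.04. Of all genes, 30% were higher and 29.7% lower. Rps24, a gene mutated in Diamond-Blackfan anaemia in humans, read 8.38, 8.32 and 8.22 on TKO arrays, against 8.68, 8.63 and 8.62 on WT arrays. It was the lowest of all 76 common genes (-0.34 ± 0.053 SE, adjusted p = 0.00269), with all TKO values below all WT values. Its other 3 probes gave -0.14, 0.04 and 0.02, none of which passed. Rps18 (-0.13), Rps19 (-0.13), the gene most often mutated in Diamond-Blackfan anaemia, Rps3a1 (-0.13), Rps15a (-0.12) and Rps7 (-0.10) fell as well. Rps18 (adjusted p = 0.0377), Rps7 (adjusted p = 0.0388) and Rps15a (adjusted p = 0.0481) passed narrowly. Without TKO replicate 3, Rps18, Rps19, Rps3a1, Rps15a and Rps7 all lost the call. Rps27 (-0.09 ± 0.055 SE, adjusted p = 0.209) and Rps4x (0.01 ± 0.037 SE, adjusted p = 0.77), the relatives of Rps27l and Rps4l, did not pass. Their brightest probes map outside the chromosome of the gene, as that of Rps29 does.

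The stalk proteins Rplp0, Rplp1 and Rplp2 were not called, at -0.06 ± 0.053, 0.01 ± 0.032 and -0.11 ± 0.070 (SE). Rplp0 read 8.99, 9.06 and 8.92 on TKO arrays, against 9.11, 9.03 and 9.02 on WT arrays, and the values overlapped. Rpl5 and Rpl11, which bind the 5S RNA and, when free, the p53 inhibitor Mdm2, were not called either (-0.06 ± 0.071 and 0.12 ± 0.062 SE). Fau, which encodes a small subunit protein fused to a relative of ubiquitin, is outside the name pattern and differed by -0.10 ± 0.046 (SE, adjusted p = 0.125).

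**Figure D2:**
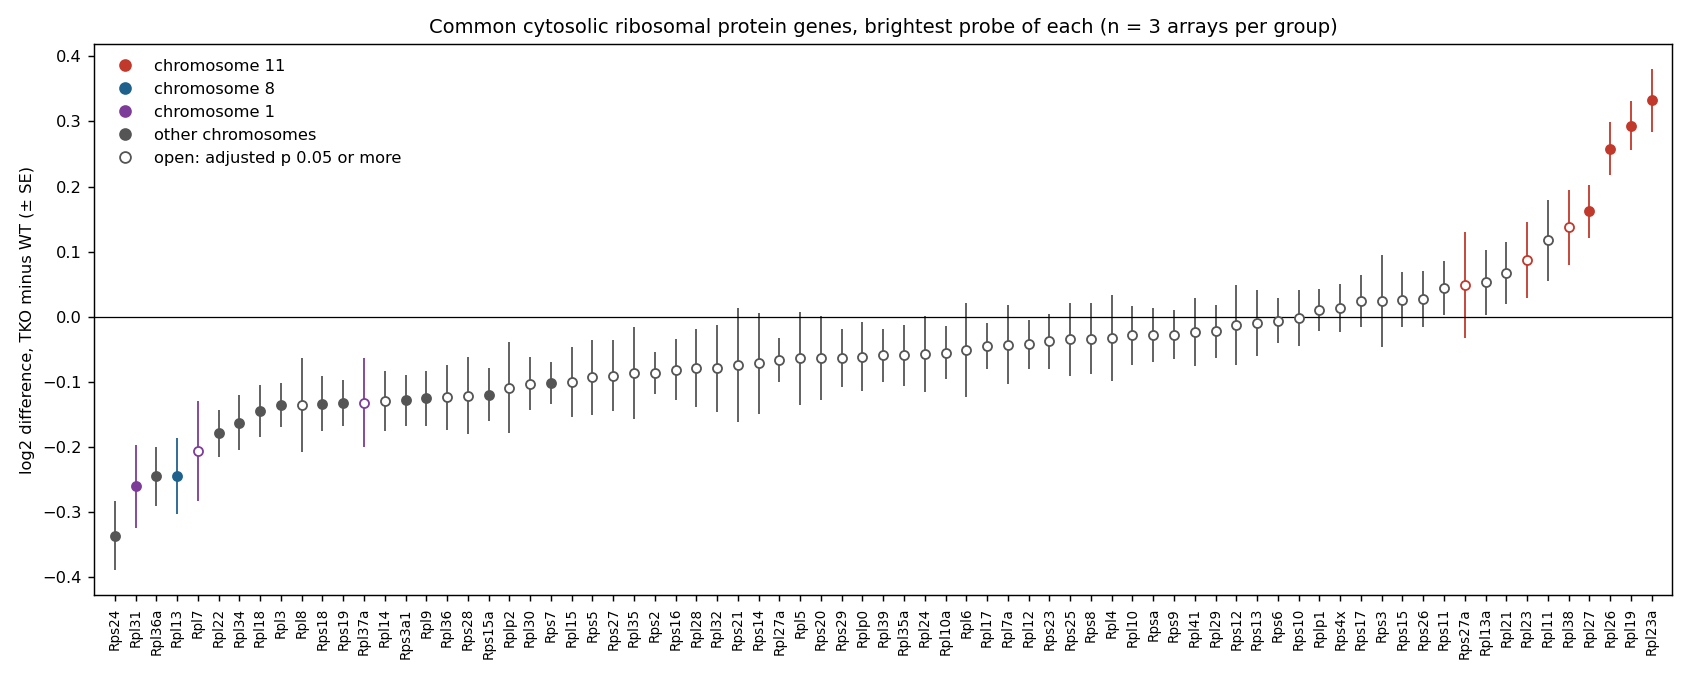
Log2 difference, TKO minus WT, with its SE for the brightest probe of 75 of the 76 common genes, in rising order, with n = 3 arrays per group. Filled points passed the test, and colours mark chromosomes 11, 8 and 1. The differences run from -0.34 (Rps24) to 0.33 (Rpl23a), and the 4 genes called higher, none of which is called with median centring, are all on chromosome 11.

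All 4 common genes that rose, Rpl23a, Rpl19, Rpl26 and Rpl27, were on chromosome 11, and of the 69 common genes elsewhere limma called 0 higher (18 of the 69 had an unadjusted p under 0.05 in either direction). Rpl23a, which lies at the exit tunnel, read 7.99, 8.11 and 8.02 on TKO arrays, against 7.73, 7.72 and 7.66 on WT arrays (0.33 ± 0.048 SE, adjusted p = 0.00189). Rpl19 read 8.72, 8.76 and 8.70 on TKO arrays, against 8.47, 8.41 and 8.42 on WT arrays (0.29 ± 0.038 SE, adjusted p = 0.00114). In both genes every TKO dish lay above every WT dish. Rpl26, known to promote translation of p53 messenger RNA, read 8.47, 8.56 and 8.49 on TKO arrays, against 8.28, 8.23 and 8.23 on WT arrays (0.26 ± 0.040 SE, adjusted p = 0.00259). Rpl27 read 8.91, 8.93 and 8.87 on TKO arrays, against 8.78, 8.70 and 8.76 on WT arrays (0.16 ± 0.040 SE, adjusted p = 0.0156). The groups did not overlap in either gene. The other probes of these genes rose too, at 0.52 for Rpl23a, 0.29 and 0.38 for Rpl26 and 0.32 for Rpl27. Rpl38 (0.14), Rpl23 (0.09) and Rps27a (0.05), the other members on chromosome 11, were above 0 without passing. Outside chromosome 11, Rpl11 was called higher with normexp, quantile normalization, cyclic loess and without WT replicate 1, Rpl21 with normexp and Rps10 with quantile normalization.

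The 1609 other genes tested on chromosome 11 had a median difference of 0.35, with 57.6% higher, so all 7 members lay below the median of their chromosome. Within 5 Mb of each, the median was 0.46 around Rpl23a, 0.38 around Rpl19, 0.36 around Rpl26 and 0.38 around Rpl27. With median centring the 4 genes lay between -0.04 and 0.13 and none was called. On chromosome 8, with a median of -0.22 over 1170 genes, Rpl13 fell. On chromosome 1, with a median of -0.12 over 1230 genes, Rpl31 fell, and Rpl7 (-0.21) and Rpl37a (-0.13) did not pass.

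Across the 73 common genes whose probe lies on the chromosome of the gene, the difference of the member and the median difference of all other genes within 5 Mb had a Pearson r of 0.67 and a Spearman rho of 0.34. These are genes on the same arrays and not independent replicates. Without chromosome 11, r was 0.27 and rho 0.11 over 66 genes, and without chromosomes 1, 8 and 11 they were -0.05 and -0.08 over 61 genes. The 64 common genes outside these 3 chromosomes had a median of -0.06, with 0 higher and 12 lower.

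**Figure D3:**
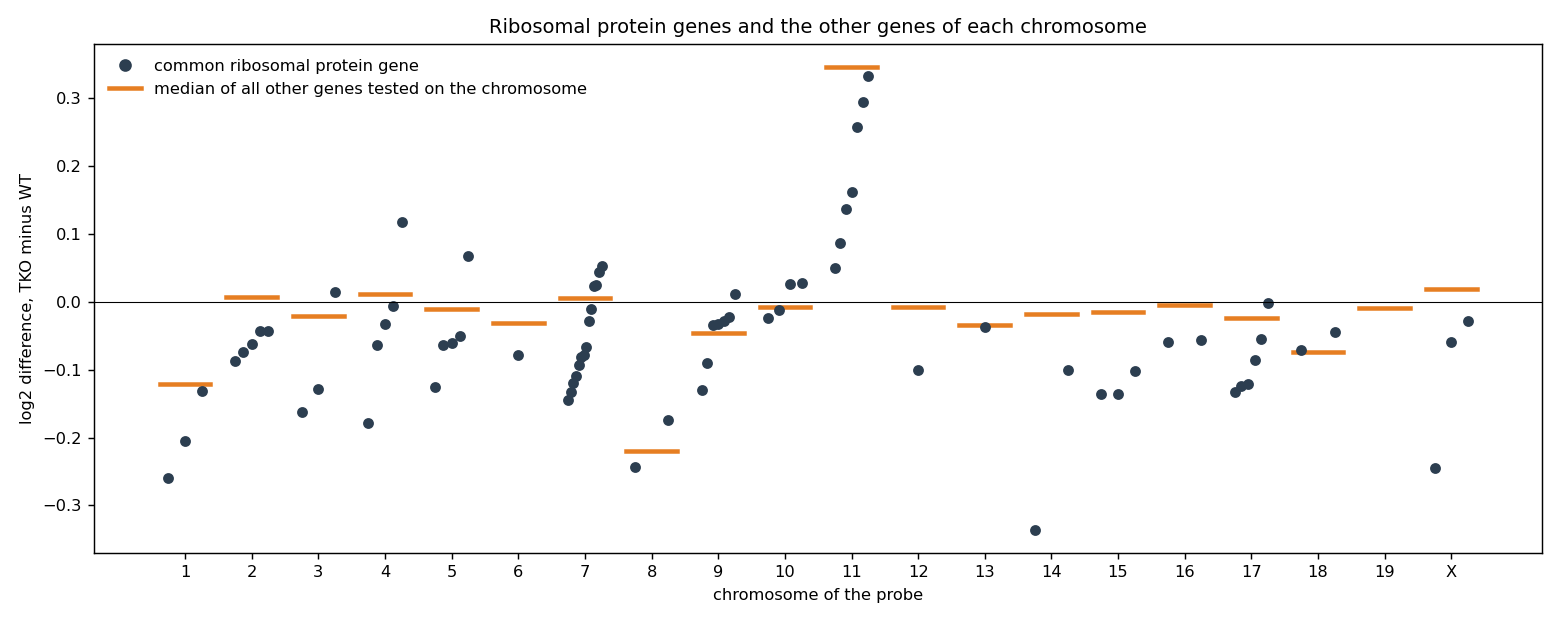
Log2 difference, TKO minus WT, of each common gene (points) by the chromosome of its probe, with the median of all other genes tested on that chromosome (orange bars). All 7 members on chromosome 11 lie above 0 and below the chromosome's median of 0.35. Median centring moves every difference down by a constant, to -0.04 for Rpl27 and lower still for Rpl38, Rpl23 and Rps27a.

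Start regions of the raised genes on chromosome 11 are shown where they hold the motif CCGGAA on either strand, in capitals. This is the core bound by ETS factors such as Gabpa. Another annotated Rpl19 window lacked the motif and is not shown. Rpl23a has no window in the table used. Windows run from 60 bases before the start to 30 after it, from RefSeq on GRCm38.p6.
Rpl19 (chr11:98026650-98026739, plus strand): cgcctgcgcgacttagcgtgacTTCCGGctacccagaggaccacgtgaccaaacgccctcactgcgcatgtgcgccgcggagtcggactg
Rpl26 (chr11:68901506-68901595, plus strand): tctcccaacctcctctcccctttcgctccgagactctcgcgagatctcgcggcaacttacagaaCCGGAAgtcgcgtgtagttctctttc
Rpl27 (chr11:101442185-101442274, plus strand): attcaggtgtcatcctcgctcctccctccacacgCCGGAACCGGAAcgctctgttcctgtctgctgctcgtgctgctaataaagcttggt
CCGGAA on either strand, searched in the full windows of 300 bases, was in 32 of 66 windows of common genes (48.5%), against 14.9% of all 32851 windows. CTCTTTCC was in 19.7% against 3.12%, AAGATGGC, the core of the factor YY1, in 10.6% against 2.75%, and TATAAA in 9.09% against 13.6%. The 31 common genes with CCGGAA had a median difference of -0.06, with 3 higher and 7 lower. The 25 with a window but without the motif also had -0.06, with 0 higher and 6 lower. For 62 of the 84 members the table held a window.

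Probes of the same gene did not always give the same answer. Among the 105 other kept probes of the common genes, 38 (36.2%) passed, 20 higher and 18 lower, against 57.1% of all 30734 kept probes, 28.9% higher and 28.2% lower. A second Rpl22 probe, much dimmer than the first, read 4.27, 4.09 and 4.14 on TKO arrays, against 3.11, 3.14 and 3.11 on WT arrays. It rose by 1.05 ± 0.056 (SE), where the brightest probe fell. Rpl30, the other gene with probes called in opposite directions, had probes at -0.10 (not called), -0.13 and 0.51, the last of them dim.

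Rps6, the substrate of the S6 kinases, had bright probes at -0.01 and -0.07 and a dim probe at 1.40 ± 0.047 (SE). That probe read 3.96, 3.99 and 4.01 on TKO arrays, against 2.64, 2.52 and 2.61 on WT arrays, so the groups were far apart. Dim probes also rose for Rps25 (1.06), Rps27a (0.96) and Rpl23 (0.84) and fell for Rpl15 (-1.05), where each gene's brightest probe was not called. Bright probes stood apart as well. A second Rps2 probe read 8.55, 8.57 and 8.46 on TKO arrays, against 7.45, 7.51 and 7.49 on WT arrays (1.05 ± 0.047 SE), and a second Rps13 probe read 8.67, 8.59 and 8.50 on TKO arrays, against 7.67, 7.62 and 7.61 on WT arrays (0.95 ± 0.056 SE). The Rps2 probe shared 52 of 60 bases with a probe of Gm10420, and the Rps13 probe shared 57 of 60 with a probe of another name. Of the 76 brightest probes, 27 shared at least 50 of 60 bases with a probe of another name, and the part of such near copies in these values was not tested.

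In some other genes the probes agreed in sign, though not always in size. Rps3a1 fell on all 3 of its probes, by 0.13, 0.26 and 1.15 on the log2 scale. Rpl31 fell on 3 of 4 (-0.26, -0.53 and -0.58, with -0.18 not called) and Rpl13 on 3 of 4 (-0.24, -0.33 and -0.46, with -0.22 not called). The Rpl13 probes at -0.33 and -0.46 map to chromosome 4, not to chromosome 8 like the others, and share 48 and 50 of 60 bases with probes of other names. For Rpl7 a single probe of 4 was called (-0.42), and all 4 lay below 0. Rpl11 had its dimmest probe at 0.59 ± 0.069 (SE) beside 0.12 and 0.04, which were not called. Taking the mean of all probes per gene, 14 common genes were higher and 15 lower, and taking the dimmest kept probe 19 were higher and 13 lower.

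**Figure D4:**
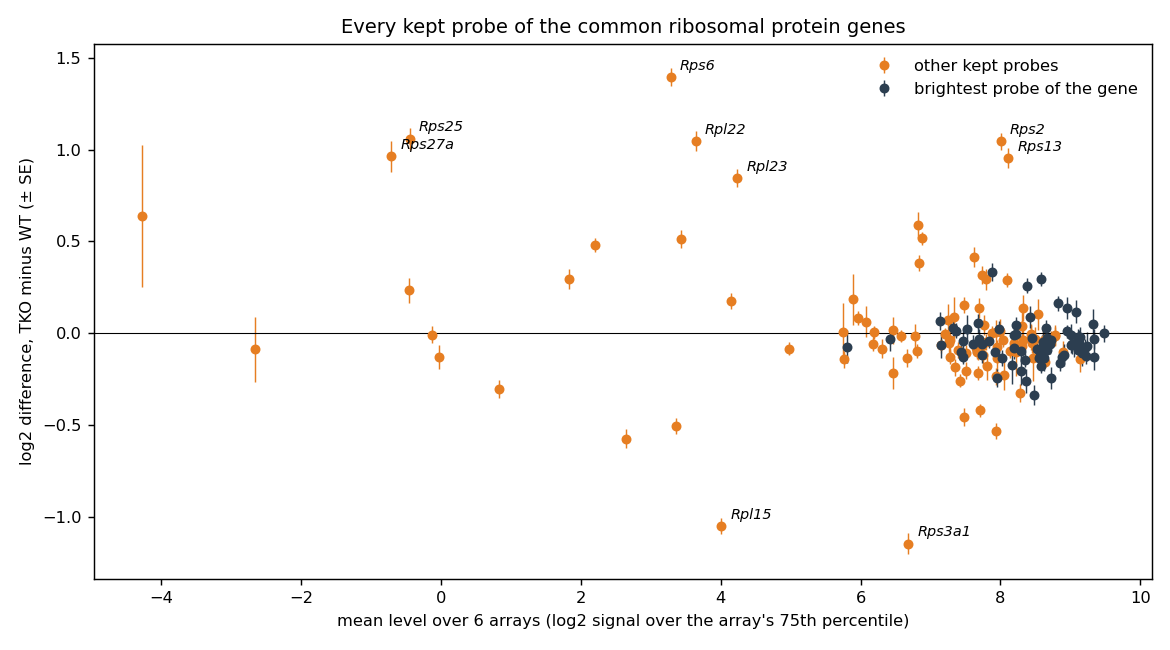
Log2 difference, TKO minus WT, with SE against the mean level on the 6 arrays for all kept probes of the common genes, brightest probe of each gene in dark blue and all others in orange. The brightest probes lie between -0.34 and 0.33, and 9 other probes, named by gene, lie beyond 0.8 in either direction.

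Genes that build, tune or accompany the ribosome were described from lists chosen with earlier results of these data known. Of 50 ribosome biogenesis genes, 16 rose, 16 fell and 18 did not pass, with a median of -0.004, shares close to the 30% higher and 29.7% lower of all genes. The nucleolar helicase genes went opposite ways: Ddx21 read 3.79, 4.01 and 3.98 on TKO arrays, against 2.86, 2.83 and 2.87 on WT arrays (1.08 ± 0.067 SE, adjusted p = 6.59e-05), and Ddx18 read 4.69, 4.63 and 4.71 on TKO arrays, against 5.55, 5.53 and 5.61 on WT arrays (-0.89 ± 0.043 SE, adjusted p = 2.76e-05). The Ddx21 probe lies on chromosome 10 at base 62044862, close to the brightest probe of the targeted gene Tet1 at base 62274448. The part of this position in the Ddx21 value was not tested. Tsr1 (0.82 ± 0.039 SE), a maturation factor of the small subunit, and Nhp2 (0.63 ± 0.046 SE), a protein of box H/ACA small nucleolar particles, rose and lie on chromosome 11. Rrs1 (-0.74 ± 0.047 SE), needed for large subunit assembly, and Wdr75 (-0.62 ± 0.055 SE) fell and lie on chromosome 1 like Ddx18. On chromosome 1, 6 of 6 biogenesis genes fell, where 40.2% of genes outside the ribosomal protein family were lower, and on chromosome 11, 3 of 6 rose, where 57.6% of such genes were higher. With median centring, 3 of the 50 were higher and 23 lower.

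Of 19 other genes whose messenger RNAs are TOP messages or close partners of translation, 3 rose, 7 fell and 9 did not pass, with a median of -0.10, so that the share called was not above the 59.7% of all genes (30% higher and 29.7% lower). The initiation factor genes Eif3e (-0.30 ± 0.037 SE) and Eif3k (-0.23 ± 0.038 SE) and the poly(A)-binding protein gene Pabpc1 (-0.27 ± 0.042 SE) fell. The initiation factor gene Eif4b (0.71 ± 0.034 SE) rose, as did the histone chaperone gene Nap1l1 (0.27 ± 0.035 SE) and the RNA-binding protein gene Hnrnpa1 (0.15 ± 0.033 SE, but -0.05 with median centring). Eif4b read 5.03, 4.99 and 4.99 on TKO arrays, against 4.28, 4.30 and 4.30 on WT arrays, with no overlap. Without WT replicate 1 and TKO replicate 2, 6 of these 19 genes were called in place of 10.

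Of 23 regulators of ribosomal protein genes, 11 rose, 6 fell and 6 did not pass, with a median of 0.15, or -0.05 with median centring, where 8 rose and 8 fell. Of all genes, 30% were higher and 29.7% lower. Rps6kb1, the S6 kinase that phosphorylates Rps6, read 4.91, 4.97 and 4.89 on TKO arrays, against 3.80, 3.89 and 3.89 on WT arrays (1.06 ± 0.044 SE, adjusted p = 1.55e-05). Larp1, which binds TOP messages and holds back their translation, read 6.47, 6.71 and 6.58 on TKO arrays, against 5.72, 5.64 and 5.61 on WT arrays (0.93 ± 0.072 SE, adjusted p = 0.000149). Both groups of dishes lay well apart in each gene. Trp53, the gene of p53, rose by 0.82 ± 0.072 (SE). All 3 lie on chromosome 11, where 4 of 4 regulators rose and 57.6% of genes outside the ribosomal protein family were higher. Rheb, the activator of mTOR, fell (-0.36 ± 0.044 SE), as did its inhibitor Tsc2 (-0.55 ± 0.161 SE, dim, with the call lost in 7 of 19 alternatives) and the translation repressor gene Eif4ebp1 (-0.28 ± 0.036 SE).

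Fibroblast markers stood for RNA of the feeder cells that the cultures had been kept on. Of 15, 14 were tested, 8 higher and 2 lower in TKO cells, against 30% higher and 29.7% lower of all genes. The summed signal of the markers was 56.2 to 60.3 times the 75th percentile on TKO arrays and 61.3 to 62.8 times on WT arrays. Lum was above background on no array. The lower sum rests on Vim, at 26.6 to 27.2 times on TKO arrays and 37.1 to 38.7 times on WT arrays. Without Vim, the other 13 summed to 29.6 to 33.1 times on TKO arrays and 23.5 to 24.2 times on WT arrays. Their part in the ribosomal protein values was not tested.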

How the data were processed

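The data were 6 deposited scanner files of a one-colour Agilent array, which the authors extracted with Agilent software (Feature Extraction 11.5.1.1, according to the submitters' processing notes). The processed signal is a linear intensity that, per the file headers, was detrended after background subtraction, with no step to make arrays comparable, and positions are on build mm9. The deposited flags of each spot are another kind of value, 0 or 1. The authors also deposited a table on a log2 scale. Each of its columns was the log2 processed signal shifted by a constant (all probes within 0.01), with medians of -3.9, -3.74 and -3.82 for TKO arrays and -3.97, -3.97 and -4.03 for WT arrays. How it was centred is not stated in the sources used here.

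Control spots and outlier spots were left out, spots of a probe were averaged, and the log2 of the 75th percentile of each array was subtracted. Probes well above background on at least 3 of 6 arrays were kept, and each gene name was represented by its brightest kept probe. All 21562 genes were fitted with limma 3.58.1 (lmFit and eBayes, R 4.3.3) without covariates, with Benjamini-Hochberg adjustment over all of them and a threshold of 0.05; probes were fitted likewise over all 30734 kept probes. Sequences were searched with Python 3.11.15 and probes aligned with blastn 2.17.0. The number of arrays limits the precision. The share of spots well above background was 51.9% to 57.8% on TKO arrays and 54.9% to 58.5% on WT arrays, with 0 saturated. A single slide, scanned once, held TKO replicates 2 and 3 in its row 2 and the other 4 arrays in row 1. In row 2 the share of spots well above background was 51.9% and 52.2%, with 160 and 150 outlier spots. In row 1 it was 54.9% to 58.5%, with 100 to 104 outlier spots.

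Members and lists were chosen with earlier results of these data known, so no p is given over a list. Named were all paralogs with an l and their common relatives, among called common genes whose groups lay apart the 8 that rose most (4 existed) and the 8 that fell most, Rpl5, Rpl11 and the stalk genes, up to 3 higher and 3 lower called genes of each list, Fau, and genes with probes called in opposite directions. Other genes and probes in the text were named after their values were seen, and some genes that the rule names or that belong to the group are not reported here one by one. Alternatives were normexp with an offset of 50, quantile normalization, median centring, cyclic loess, no filter, a filter on all 6 arrays, the mean or dimmest probe, the deposited table, replicate and array row blocks, and leaving out each array. Same-numbered TKO and WT arrays did not deviate together (r between -0.069 and 0.006 over all genes), so the numbers were not taken as pairs. Over the common genes alone, r was -0.23, -0.30 and 0.31 for replicates 1, 2 and 3. Differently numbered arrays ranged there from -0.47 (TKO replicate 2 with WT replicate 3) to 0.53 (TKO replicate 2 with WT replicate 1).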

Additional observations from a re-analysis of the deposited data

How the results depend on the processing

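Of 589 comparisons of a named ribosomal protein gene with one of 19 alternatives, 465 kept direction and call, 66 lost the call, 33 gained it and 25 changed sign, and 3 of 31 named genes, Rpl10l, Rpl39l and Rpl7l1, kept both in all 19. The count of common genes lower in TKO, 14, was 22 with normexp, 9 with quantile normalization, 59 with median centring, 7 with cyclic loess, 5 with no filter and 5 with the array row as a block. With the replicate block it was 6, and that block brought no change of over 1.5 times in the other counts. Leaving out single arrays gave 5 to 12 for these, 3 to 5 higher (3 to 5 on chromosome 11), 3 to 4 paralogs ending in l, 27 to 29 biogenesis, 9 to 10 TOP and 15 to 19 regulator genes, and a median of -0.0886 to -0.0297, with 5 without TKO replicate 3 and 6 without WT replicate 1. In 2 alternatives chosen after seeing the data, it was 2 in array row 1 alone and 3 without WT replicate 1 and TKO replicate 2. Of the 14, Rps24 alone was still called in row 1 alone. The count higher, 4, was 7 with quantile normalization, 0 with median centring (0 also on chromosome 11), 14 with the mean of the probes and 19 with the dimmest. The median of the common genes was -0.261 with median centring. Called paralogs ending in l numbered 2 with the row block and 2 in row 1 alone. Called biogenesis genes, 32, were 21 in row 1 alone and 21 without WT replicate 1 and TKO replicate 2, where called TOP genes were 6.

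Sign changes were in small or probe-dependent values. Rps4x was at -0.0173 with normexp, -0.187 with median centring, -0.0203 with the mean of the probes, -0.0544 with the dimmest and -0.00667 in the deposited table, and ran from -0.0045 to 0.0306 when single arrays were left out. Rplp1 was at -0.0178 with normexp, -0.19 with median centring and -0.0133 in the deposited table. Rps12l2 was at 0.0168 with quantile normalization and 0.0189 with loess, and Rpl10 at 0.00767 and 0.0194; leaving out arrays gave -0.0692 to 0.0213 for Rps12l2 and -0.0501 to 0.00558 for Rpl10. Median centring turned Rpl22l1 (-0.0824), Rps4l (-0.0909), Rpl27 (-0.0393), Rpl11 (-0.0835) and Hnrnpa1 (-0.0516). The mean of the probes turned Rpl22 (0.43) and Rpl30 (0.0933), and the dimmest probe Rpl22 (1.05), Rps24 (0.0162), Rplp0 (0.137) and Rpl30 (0.51). The causes were not tested, other than that median centring shifts all differences by a constant and that no filter adds genes to the adjustment.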
